A study of Mus musculus with 10 samples.

Results

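The cytosolic ribosomal protein genes were taken from the table of raw counts by their names: every gene called Rpl or Rps followed by a number, the stalk genes Rplp0 to Rplp2, and Rpsa, without pseudogenes marked -ps and without the S6 kinases. The rule gave 92 of the 40789 genes in the table, 53 with a large subunit name and 39 with a small subunit name. Of these, 77 encode standard proteins of the mature ribosome (46 large, 31 small), 7 are paralogues expressed beside a standard gene, 6 are copies named after a member, and 2 (Rpl7l1 and Rps19bp1) fit the name rule but encode no protein of the mature ribosome. The genes were compared in microglia, the resident macrophages of the brain, sorted by flow cytometry for high green fluorescence from the cortex of 10 female mice of 2 to 3 months. All mice were CX3CR1+/egfp on a C57BL6/J background, so that all carried a fluorescent reporter in place of 1 copy of the fractalkine receptor gene, controls included. The LPS group (n = 5) received 4 mg/kg of lipopolysaccharide (LPS), a molecule of the outer membrane of bacteria that is sensed by innate immune receptors, by the intraperitoneal route, and the control group (n = 5) received saline. The mice were killed after 24 hours, with 1 library made per mouse.

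The ribosome joins a small subunit, which reads the mRNA, to a large subunit, which forms the peptide bond and passes the chain out through its exit tunnel. Each subunit is a core of ribosomal RNA covered by proteins that are mostly present in a single copy, so that their genes are usually expressed in step, and proteins made in excess are degraded. Most of their mRNAs begin with a run of C and U at the first transcribed base, the terminal oligopyrimidine (TOP) motif, through which mTORC1 signalling controls their translation.

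RefSeq promoters (GRCm38.p6) were matched for 67 of the 92 genes, and the windows below run from 45 bases before to 15 bases after an annotated start. They are shown because many members hold a run of C and T near an annotated start site, with genes from both ends of the response. Capitals mark the run of at least 8 C or T that overlaps the 20 bases on either side of the start. A marked run can thus end before the start, as that of Rpl4 does, and then lies outside a transcript that begins there. Rps18 (chr17:33955651-33955710, minus strand), Rpl14 (chr9:120571472-120571531, plus strand) and Rpl28 (chr7:4792920-4792979, plus strand) were among the genes with the largest rise. Rpl4 (chr9:64173342-64173401, plus strand) had the most counts, Rplp2 (chr7:141447606-141447665, plus strand) encodes a stalk protein, Rps24 (chr14:24490633-24490692, plus strand) was not called, and Rpsa (chr9:120127721-120127780, plus strand) rose without holding such a run.
Rps18: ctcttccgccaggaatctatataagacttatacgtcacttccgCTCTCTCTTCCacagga
Rpl14: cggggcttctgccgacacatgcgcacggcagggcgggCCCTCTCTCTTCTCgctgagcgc
Rpl28: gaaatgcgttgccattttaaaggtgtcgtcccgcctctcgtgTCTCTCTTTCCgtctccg
Rpl4: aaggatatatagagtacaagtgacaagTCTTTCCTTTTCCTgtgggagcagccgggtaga
Rplp2: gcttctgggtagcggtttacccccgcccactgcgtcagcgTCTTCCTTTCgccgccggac
Rps24: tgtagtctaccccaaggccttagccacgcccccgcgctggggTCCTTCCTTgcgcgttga
Rpsa: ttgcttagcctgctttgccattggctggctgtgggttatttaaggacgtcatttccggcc

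Such a run was found in 33 of the 67 genes (49.3%), against 24.0% of the 9785 tested genes with a promoter in the same table. These runs lie near the start and need not include it. CCGGAAG, the core bound by ETS factors such as GABP, was found on either strand within the 300 bases of each promoter in 26 of the 67 (38.8%), against 20.8% of the tested genes. AAGATGGCG, the YY1 core, was found in 5.97% against 3.72%, and TATAAA in 10.4% against 9.01%, again on both strands. A C or T run can overlap the reverse complement of CCGGAAG, as both hold CTTCC. Of the tested genes with the C or T run, 28 of 33 were higher in LPS (median log2 fold change 1.18), and of those without it 21 of 31 (median 1.08). With CCGGAAG the count was 24 of 26 (median 1.19), and without it 25 of 38 (median 1.03). These counts include genes that are not standard subunits. Among them, Rpl7l1, Rps19bp1, Rpl37rt and Rps27rt held neither the C or T run nor CCGGAAG, and were not called. The paralogue Rpl39l held both and was not called, while the paralogues Rpl22l1, Rpl36al and Rps27l were called. A match describes these letters only, and the difference between the genes with and without a match was not tested.

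In microglia sorted after LPS, most of the tested ribosomal protein genes had a higher level relative to the other RNA of the library. The absolute amount of RNA per cell was not measured. Of 85 genes with enough counts to test, 67 were higher in LPS, none was lower and 18 were not called (edgeR's quasi-likelihood test, Benjamini-Hochberg adjusted p under 0.05 over all genes). Among all 13793 tested genes, 22.4% were called higher and 22.5% lower. The median log2 fold change of LPS over saline was 1.15 over the 85 genes, a 2.23-fold higher level, and 0.0014 over all genes. In 58 of the 85 the 5 LPS values all lay above the 5 saline values, while values of all tested genes failed to overlap in 29.8%, and did so with LPS higher in 14.1%. A called rise of at least 2-fold was found in 54 of the 85, against 10.4% of all tested genes. RNA was measured in sorted bulk samples, in which a change in the make-up of the cells and a change in the RNA per cell cannot be told apart.

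Of the large subunit genes tested, 42 of 50 were higher (median log2 fold change 1.15), and of the small subunit genes 25 of 35 (median 1.18). With standard proteins alone, the counts were 40 of 45 (median 1.15) and 24 of 30 (median 1.18).

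**Figure D1:**
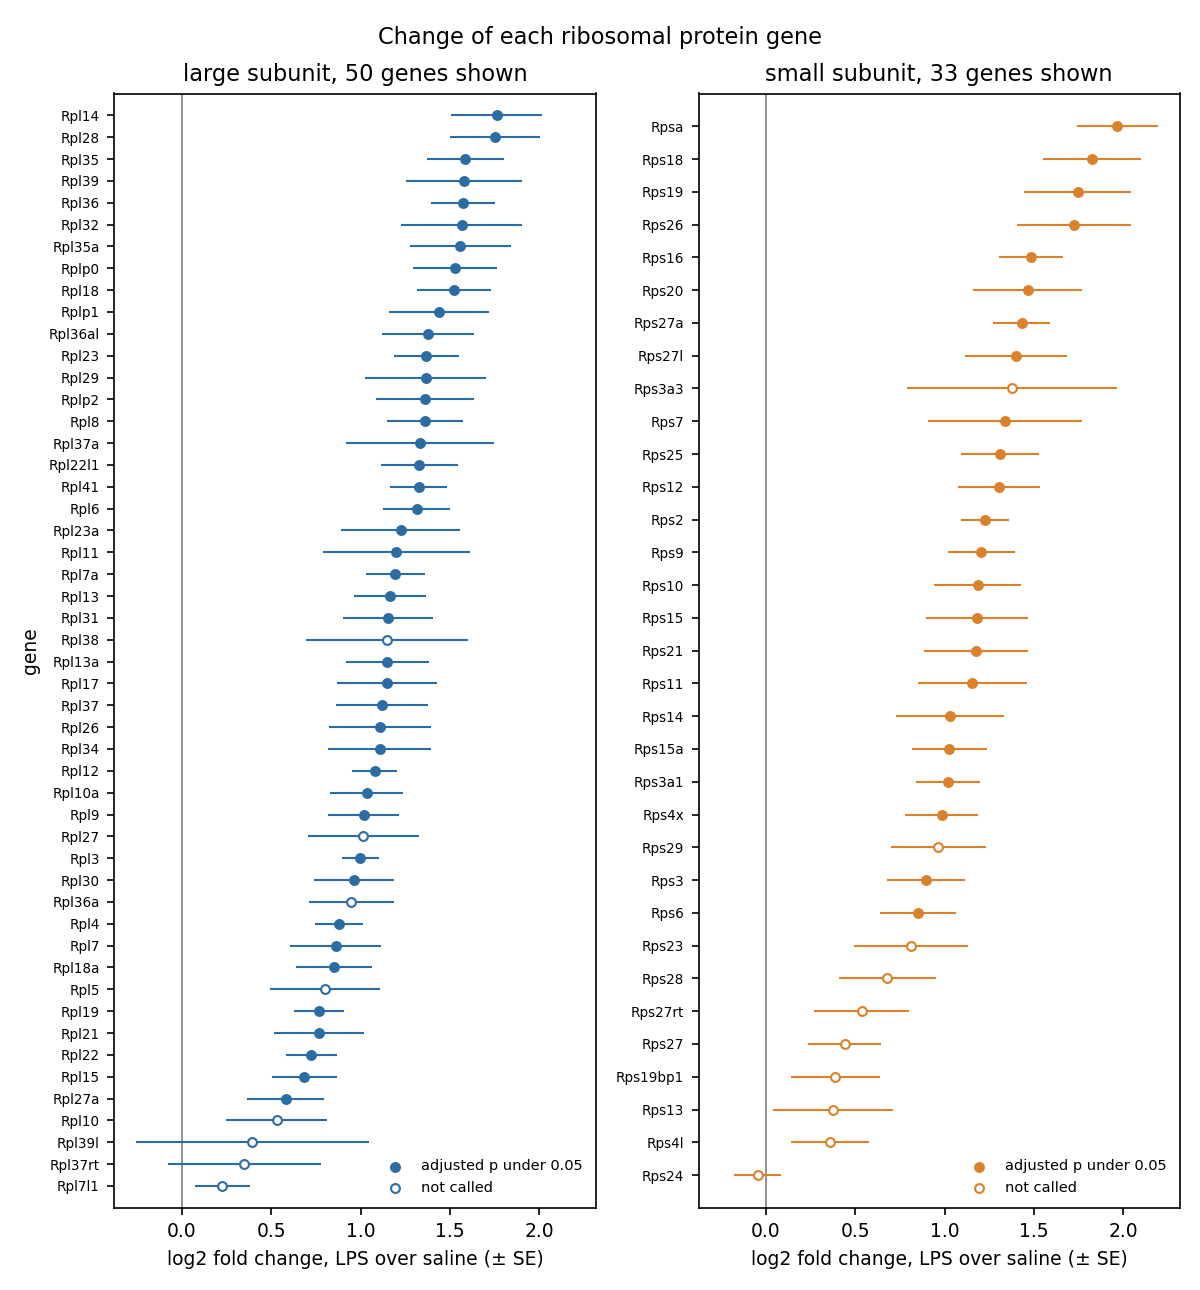
Log2 fold change of LPS over saline (x axis, with standard error) for each tested gene (y axis), for genes with a large subunit name on the left and genes with a small subunit name on the right, without 2 tested genes that are not reported here; filled points had an edgeR adjusted p under 0.05. Among the genes drawn, the estimate was above 0 for every gene but Rps24, at -0.05.

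The share of all counts that fell in the 92 genes does not depend on a scaling across libraries. In the saline mice 1 to 5 it was 0.456%, 0.318%, 0.415%, 0.312% and 0.448%. In the LPS mice 1 to 5 it was 0.782%, 0.726%, 0.824%, 0.663% and 0.969%. The groups did not overlap, and the mean was 2.03 times as high in LPS (0.793% ± 0.116, SD, n = 5) as in saline (0.390% ± 0.070, SD, n = 5). The large subunit genes went from 0.228% ± 0.033 to 0.452% ± 0.054 and the small subunit genes from 0.162% ± 0.037 to 0.341% ± 0.066 (SD, n = 5 each).

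**Figure D2:**
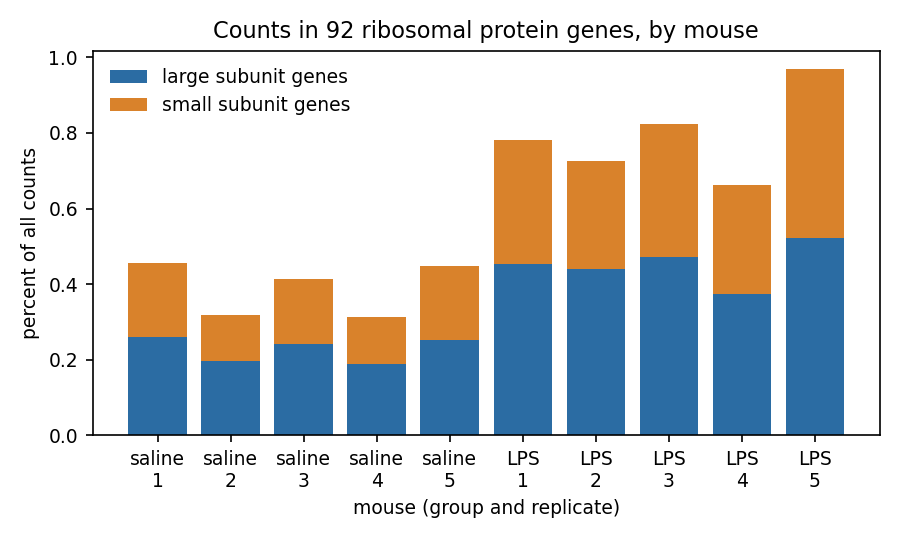
Percent of all counts (y axis) in the 92 genes for each mouse (x axis), stacked as large subunit genes (blue) and small subunit genes (orange). The 5 saline mice lie between 0.312% and 0.456% and the 5 LPS mice between 0.663% and 0.969%.

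The ratio of large to small subunit counts overlapped between the groups, at 1.30 to 1.62 in saline and 1.16 to 1.53 in LPS. A single gene weighs on this ratio, since Rpl4 held 14.98% of all counts in the set. Without Rpl4 the ratio was 0.968 to 1.11 in saline and 0.933 to 1.07 in LPS. The 5 genes with most counts held 49.6% of the counts of the set.

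Within a group, these genes tended to be high or low together in a mouse. Among the saline mice, mouse 1 had the highest value of its group in 45 of the 85 tested genes and mouse 4 the lowest in 46. In the LPS group, mouse 5 was highest in 54 and mouse 4 lowest in 41. All genes with a length were split into 5 equal classes by length. The share of counts in the other genes of the shortest class was 15.7%, 12.4%, 15.1%, 12.1% and 17.1% in saline mice 1 to 5, and 23.1%, 19.5%, 23.1%, 19.7% and 28.0% in LPS mice 1 to 5. The part of this share in the differences between mice and groups was not tested.

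**Figure D3:**
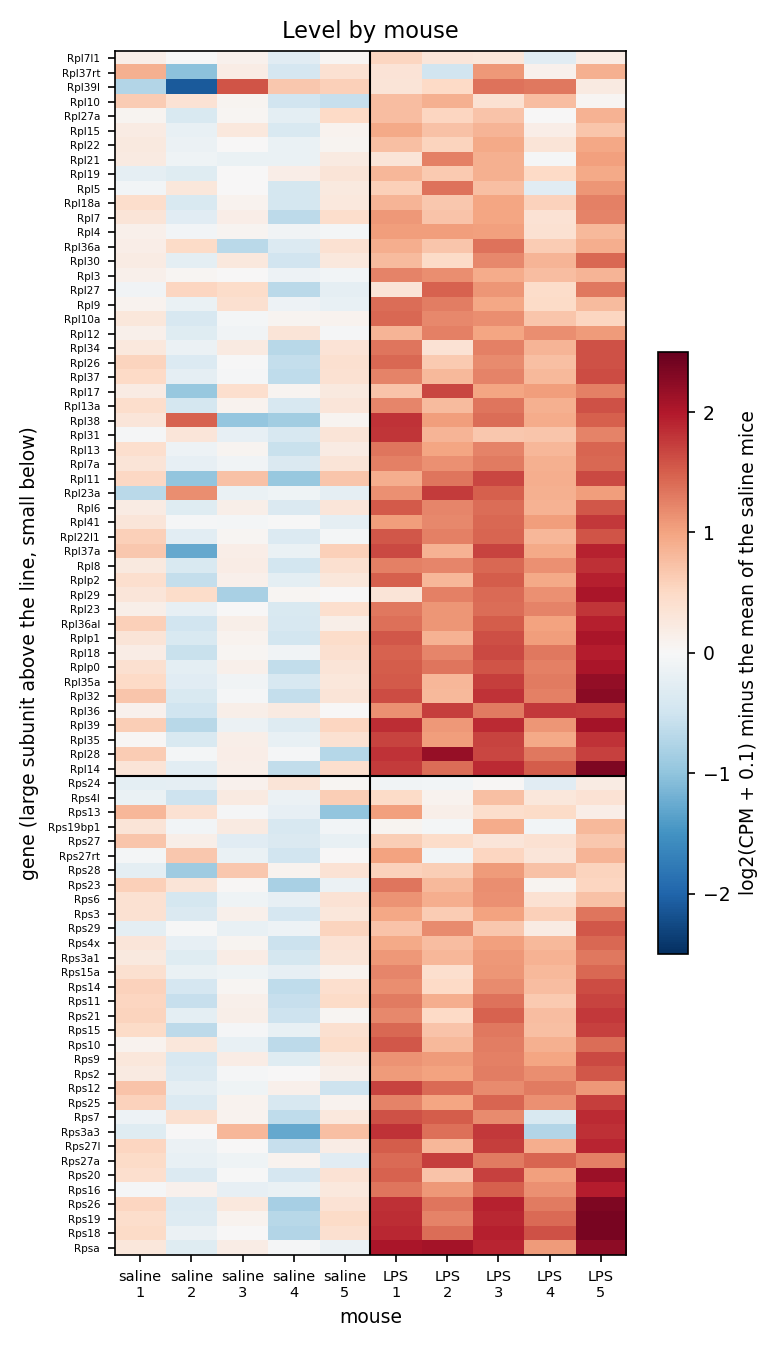
Level of the tested genes, without 2 that are not reported here (rows), in each mouse (columns) as log2(CPM + 0.1) minus the mean of the saline mice, CPM being counts scaled to a common library size; red is higher and blue lower. The LPS columns are red for most genes, most strongly in LPS mouse 5, which was the highest of its group in 54 of 85 genes, and the row of Rps24 stays pale.

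Levels are given as CPM, counts scaled to a common library size. The stalk of the large subunit, which recruits elongation factors, was higher in all 4 of its genes (median log2 fold change 1.40). Rplp0 (chr5:115559467-115563729), which anchors the stalk, had 230, 147, 190, 114 and 218 CPM in the saline mice and 499, 442, 517, 414 and 720 CPM in the LPS mice. The groups were apart, with 180 ± 49 against 519 ± 120 CPM (SD, n = 5 each), a log2 fold change of 1.53 ± 0.23 (SE, edgeR adjusted p = 5.49e-05). Rplp1 and Rplp2, which bind Rplp0 as dimers, rose from 48.6 ± 13.5 to 132 ± 43 CPM and from 19.99 ± 5.39 to 51.4 ± 16.2 CPM (SD, n = 5 each). Rpl12, at the base of the stalk, rose by a log2 fold change of 1.08 ± 0.13 (SE), and Rpl10a, the protein of the L1 stalk beside the tRNA exit site, by 1.03 ± 0.20 (SE). With each library corrected for a trend over gene length, Rplp0, Rplp1 and Rplp2 were still called, and Rpl12 (0.33, edgeR adjusted p = 0.424) and Rpl10a (0.48, edgeR adjusted p = 0.118) were not.

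All 8 genes of the peptide exit tunnel and its rim were called higher (median log2 fold change 1.15). Rpl4 (chr9:64173387-64178562), whose loop reaches into the tunnel, was the most abundant gene of the set. It had 691, 607, 667, 594 and 613 CPM in the saline mice and 1315, 1310, 1284, 830.1 and 1105 CPM in the LPS mice. The groups did not overlap and LPS mouse 4 was the lowest of its group (log2 fold change 0.88 ± 0.13, SE, edgeR adjusted p = 0.000289). Rpl35 and Rpl39, small proteins of the tunnel region, had larger fold changes of 3.00 and 2.99 at far lower levels, from 0.589 ± 0.138 to 1.79 ± 0.50 CPM and from 5.14 ± 1.99 to 15.4 ± 4.8 CPM (SD, n = 5 each). With the trend over gene length removed, 3 of the 8 were called (Rpl4, Rpl26 and Rpl39). Rpl35, Rpl17, Rpl19, Rpl23a and Rpl31 lost their calls, with log2 fold changes from 0.17 to 0.68 and edgeR adjusted p from 0.112 to 0.615.

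Of the 3 genes whose proteins lie near the peptidyl transferase centre, 2 were called. Rpl8 rose from 271 ± 69 to 696 ± 144 CPM and Rpl3 from 112 ± 8 to 224 ± 32 CPM (SD, n = 5 each). Rpl10, which joins late in assembly of the large subunit, was not called, with 46.3, 38.2, 31.1, 21.5 and 19.9 CPM in the saline mice and 50.7, 55.5, 38.7, 51.0 and 30.8 CPM in the LPS mice. The groups overlapped, since LPS mouse 5 lay below 3 saline mice (log2 fold change 0.53 ± 0.28, SE, edgeR adjusted p = 0.0768). Rpl10 was called without saline mouse 1 (adjusted p = 0.0250) or without LPS mouse 5 (adjusted p = 0.037).

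Rpl5 and Rpl11 bind 5S RNA together and, when free, bind the p53 regulator Mdm2. Rpl11 was called (1.08 ± 0.60 against 2.51 ± 0.66 CPM, SD, n = 5 each, log2 fold change 1.20, edgeR adjusted p = 0.0371), but not in 5 of the 10 fits that left out a mouse (saline 2 or 4, LPS 2, 3 or 5), where the adjusted p was 0.0595 to 0.0869. Rpl5 had an adjusted p of 0.0558 in edgeR (log2 fold change 0.80 ± 0.31, SE) and of 0.0113 without LPS mouse 4. Both genes were low, and only 14.6% of the 50-base stretches of the Rpl5 transcripts occurred in no other annotated gene.

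Of the other large subunit genes, 24 of 27 tested were higher (median log2 fold change 1.15, range 0.58 to 1.76). Rpl14 (chr9:120571517-120574653), a protein without a bacterial counterpart, had 93.3, 62.3, 82.7, 48.6 and 100.3 CPM in the saline mice and 251, 196, 274, 213 and 378 CPM in the LPS mice. Every LPS value was well above the saline values, and the log2 fold change was 1.76 ± 0.25 (SE, edgeR adjusted p = 2.91e-05). Rpl28 (chr7:4792965-4794547), a protein particular to eukaryotes, rose by nearly the same log2 fold change, 1.75 ± 0.25 (SE), at 1.66 ± 0.57 against 5.62 ± 1.23 CPM (SD, n = 5 each). Rpl13a, which after phosphorylation also represses translation of inflammatory mRNAs, rose from 147 ± 40 to 326 ± 74 CPM (SD, n = 5 each). Rpl38, known for its role in translation of Hox mRNAs, was not called (1.10 ± 0.91 against 2.44 ± 0.63 CPM, SD, n = 5 each, edgeR adjusted p = 0.0650), and had an adjusted p of 0.0083 without saline mouse 2, which held 2.63 CPM against 0.404 to 1.12 in the other saline mice.

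In the small subunit head, 11 of 13 tested genes were higher (median log2 fold change 1.31). Rps18 (chr17:33951998-33955665), which contacts the large subunit, had 37.8, 24.3, 27.2, 16.3 and 35.5 CPM in the saline mice and 101, 71.6, 104, 82.1 and 141 CPM in the LPS mice. The lowest LPS value exceeded the highest saline value, with a log2 fold change of 1.82 ± 0.27 (SE, edgeR adjusted p = 3.17e-05). Rps19, whose human counterpart is the gene most often mutated in Diamond-Blackfan anaemia, rose from 27.0 ± 8.8 to 90.6 ± 28.6 CPM (SD, n = 5 each). Rps3, at the mRNA entry, rose from 446 ± 111 to 830 ± 179 CPM (SD, n = 5 each). Rps27a, made as a fusion with ubiquitin, rose by a log2 fold change of 1.43 ± 0.16 (SE).

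In the body and platform of the small subunit, 13 of 17 genes were higher (median log2 fold change 1.03). Rpsa (chr9:120127766-120132369), also known as the laminin receptor, had 1.58, 1.02, 1.45, 1.25 and 1.14 CPM in the saline mice and 5.52, 5.68, 5.05, 2.79 and 6.34 CPM in the LPS mice. The groups did not overlap, with a log2 fold change of 1.97 ± 0.23 (SE, edgeR adjusted p = 0.000166). Rps9 rose from 294 ± 63 to 677 ± 131 CPM, and Rps6, the substrate of the S6 kinases, from 9.30 ± 2.34 to 16.8 ± 3.5 CPM (SD, n = 5 each).

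Rps24 (chr14:24490678-24496960), which takes part in processing of the small subunit rRNA, was the 1 tested gene with an estimate below 0. It had 38.9, 39.7, 49.6, 57.3 and 47.6 CPM in the saline mice and 43.5, 43.8, 47.4, 38.1 and 53.1 CPM in the LPS mice. The ranges overlapped almost fully (46.6 ± 7.6 against 45.2 ± 5.5 CPM, SD, n = 5 each), with a log2 fold change of -0.05 ± 0.13 (SE, edgeR adjusted p = 0.808). Its sign was not stable: it was 0.03 without saline mouse 4 and 0.01 without LPS mouse 4. Saline mouse 4, the lowest of its group in 46 genes, was the highest for Rps24. Rps24 had a mean of 623.8 counts per library, so it was not among the thinly counted genes.

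Most of the other genes that were not called had few counts. Among the 53 genes with a mean of at least 100 counts per library, 48 were higher (median log2 fold change 1.18), and among the 32 tested genes below that 19 were (median 1.15). Of the 18 genes not called, Rpl10, Rpl7l1, Rps24, Rps27 and Rps4l had at least 100 counts. The others were Rpl27, Rpl36a, Rpl37rt, Rpl38, Rpl39l, Rpl5, Rps13, Rps19bp1, Rps23, Rps27rt, Rps28, Rps29 and Rps3a3, with log2 fold changes from 0.35 to 1.37. The 7 genes with too few counts to test included the paralogues Rpl10l and Rpl3l.

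Pairs of genes, of a paralogue or similarly named gene with its standard partner or of 2 proteins that bind together, were compared as a ratio of counts within each library, over the 8 of 10 listed pairs in which both genes were tested (exact two-sided permutation test of the log2 ratio, Benjamini-Hochberg over the 8 pairs). Rpl22l1 (chr3:28805508-28807424) takes the place of Rpl22 in some ribosomes. Its count was 0.237, 0.172, 0.191, 0.164 and 0.171 times that of Rpl22 in the saline mice and 0.325, 0.305, 0.262, 0.263 and 0.284 times in the LPS mice. All LPS ratios lay above all saline ratios, with a log2 difference of 0.63 ± 0.11 (SE, exact permutation p = 0.00794, adjusted 0.0317), the smallest p that 5 against 5 mice can give. Both genes were higher in LPS on their own, Rpl22l1 from 7.11 ± 2.01 to 17.9 ± 3.5 CPM and Rpl22 from 37.7 ± 4.5 to 62.3 ± 11.4 CPM (SD, n = 5 each). Rpl22l1 is much the shorter gene (647 against 2922 bases). With the length trend removed, its log2 fold change was 0.52 and that of Rpl22 0.61, so that the difference of 0.63 became -0.092.

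Rpl7l1, which takes part in assembly of the large subunit, moved the other way against Rpl7. Its count was 2.02, 2.77, 2.21, 2.93 and 1.73 times that of Rpl7 in the saline mice and 1.57, 1.73, 1.40, 1.46 and 1.10 times in the LPS mice. The ratio was lower in every LPS mouse than in any saline mouse (log2 difference -0.67 ± 0.18, SE, exact permutation p = 0.00794, adjusted 0.0317). Rpl7l1 itself was not called (218 ± 24 against 255 ± 49 CPM, edgeR adjusted p = 0.239), and Rpl7 rose (98.5 ± 28.4 against 179 ± 40 CPM, SD, n = 5 each). Rpl7l1 is also the longer of the 2 genes (3050 against 1093 bases). With the length trend removed, the log2 fold changes were 0.14 for Rpl7l1 and 0.25 for Rpl7, a difference of -0.11.

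Rps27l, a p53 target gene, rose against Rps27 by a log2 ratio of 0.89 ± 0.24 (SE, exact permutation p = 0.0159, adjusted 0.0423), with 4 of 5 LPS mice above all saline mice. These genes are of similar length (697.5 and 672.9 bases), and the difference was 0.92 with the length trend removed. Rps4l fell short of the threshold against Rps4x at -0.61 ± 0.21 (SE, exact permutation p = 0.0317, adjusted 0.0635). No difference was called for Rplp1 to Rplp2 (0.08 ± 0.08), Rpl36al to Rpl36a (0.42 ± 0.35), Rpl5 to Rpl11 (-0.65 ± 0.46) or Rpl39l to Rpl39 (-0.78 ± 0.77), all as log2 differences with SE and with adjusted exact permutation p from 0.349 to 0.373. With a mouse left out, the smallest exact p that 4 against 5 mice allow is 0.0159, and the calls of Rpl22l1, Rpl7l1 and Rps27l against their partners were lost in 7, 7 and 8 of 10 such cases while their signs were kept. The ratio of Rps4l to Rps4x was called without LPS mouse 3 (adjusted exact permutation p = 0.0423).

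Ribosomal protein genes are short, and short genes as a whole were higher in LPS. Their median length was 913 bases, against 3677 bases over all tested genes with a length. Of the 76 genes in the shortest length class, 61 were called higher, with a median log2 fold change of 1.18, while 44.6% of all genes of that class were, with a median of 0.70. With a trend over length removed from each library, 43 of the 85 were higher (25 large, 18 small), none was lower, and all 43 had been called without that step. By role, that left 3 of 4 stalk genes, 3 of 8 tunnel genes, 15 of 27 other large subunit genes, 8 of 13 head genes and 9 of 17 body and platform genes called. In that fit 20.1% of all genes were higher and 18.4% lower, and the median log2 fold change was 0.53 over the 85 genes and 0.03 over all genes.

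Without the length trend, Rpsa had a log2 fold change of 1.65, Rps15a of 1.37, Rpl14 of 1.15 and Rps19 of 1.14 (edgeR adjusted p from 9.42e-06 to 0.000471). Rpl4 kept a call at 0.43 (edgeR adjusted p = 0.0213). Rpl7, Rpl11 and Rps6 lost theirs, and Rps13 turned to -0.41 (edgeR adjusted p = 0.432 with the trend and 0.447 without it). Across the 85 genes, Spearman's rho between change and length was -0.29, as a description over genes that share the same libraries, and across all 13199 genes with a length it was -0.48.

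**Figure D4:**
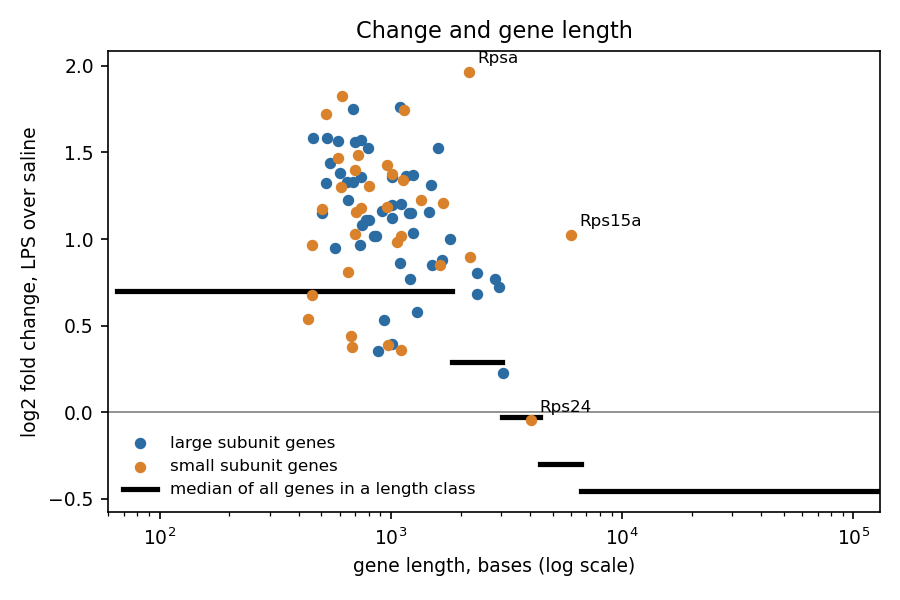
Log2 fold change of LPS over saline (y axis) against gene length in bases (x axis, log scale) for the tested genes, without 2 that are not reported here, large subunit in blue and small subunit in orange; black bars span the lengths of each of 5 classes of all genes at the median change of that class. Most points lie above the bar of the shortest class at 0.70, Rps24 lies at the bar of its own class (-0.03), and Rps15a, at 1.02, lies above the bar of its class (-0.30).

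Many of these genes have close copies elsewhere in the genome, and reads shared with a copy can be counted for neither or either. Of 86 members with a protein-coding transcript in GENCODE M21, the share of 50-base stretches found in no other annotated gene ran from 4.91% (Rpl35) to 100% (Rpl39l among them), with a median of 64.2%. Levels per kilobase differed widely, with 1.06 CPM per kilobase for Rpl31 and 542 for Rpl4. Spearman's rho between level per kilobase and that share was 0.27 over 82 genes, and between log2 fold change and that share -0.05 over the same 82. Among genes with under 50% of such stretches, 22 of 27 tested were higher (median log2 fold change 1.19), and among the rest 45 of 55 were (median 1.15). The levels are thus uncertain for the genes with close copies, Rpl35, Rpl5, Rps6, Rps18 and Rpl11 among them.

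**Figure D5:**
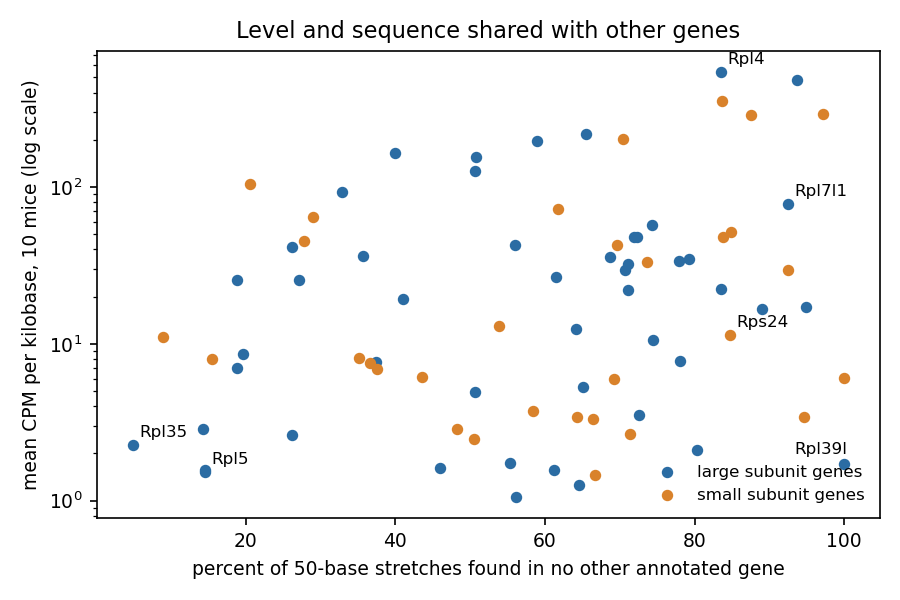
Mean level over the 10 mice in CPM per kilobase (y axis, log scale) against the percent of 50-base stretches of a gene's transcripts that no other annotated gene holds (x axis), for large (blue) and small (orange) subunit genes. Genes not reported here are left out. Rpl4, at 83.5%, has a level of 542 CPM per kilobase, and Rpl35, at 4.91%, is among the low genes.

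Other sets of the translation machinery were taken whole from names and lists. Over all tested genes, the shares to set beside these counts were 22.4% higher and 22.5% lower. Of 78 tested mitochondrial ribosomal protein genes, 65 were higher and 0 lower, with a median log2 fold change of 0.75. The median over all genes of the shortest length class was 0.70, and the part of gene length in this set was not tested. Of 46 tested ribosomal protein pseudogenes, 22 were higher and 0 lower (median 1.32), and reads of a pseudogene and of its parent can be exchanged in counting. Among translation factors and other TOP mRNAs, 16 of 20 were higher and 0 lower (median 0.91). With the length trend removed, 12 of these 20 were higher and 0 lower. Gnb2l1, an older symbol of the small subunit scaffold Rack1, went from 253 ± 55 to 702.7 ± 84.3 CPM and Gas5, a non-coding TOP RNA, from 357 ± 51 to 910 ± 186 CPM (SD, n = 5 each). Eef2, Tpt1, Nap1l1 and Eif4b of this list were not called, with log2 fold changes from -0.09 to 0.16.

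Of 41 ribosome biogenesis genes, 25 were higher and 0 lower (median log2 fold change 0.64), against 22.4% and 22.5% of all tested genes. Mrto4, a factor of large subunit assembly, rose from 9.75 ± 1.02 to 26.4 ± 3.1 CPM, and Nhp2, a core protein of pseudouridylation complexes, from 22.7 ± 5.6 to 75.7 ± 17.0 CPM (SD, n = 5 each). Of 14 RNA polymerase I genes, 5 were higher, Polr1c and Taf1d with the smallest adjusted p, and 2 lower, Rrn3 and Twistnb (edgeR adjusted p = 0.0332 and 0.0440). The 2 lower calls were a smaller share than the 22.5% over all genes. They came and went with a mouse left out (0 to 3 lower). Of 7 chaperones of ribosomal proteins 4 were higher, among them Grwd1 and Pdcd2l, with log2 fold changes of 1.66 ± 0.25 and 0.90 ± 0.16 (SE).

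Of 12 genes of mTORC1 and TOP mRNA control, 2 were higher and 0 lower (median log2 fold change 0.01), a share near the 22.4% of all genes called higher. Eif4ebp1, the translation repressor that mTORC1 inactivates, rose from 10.8 ± 2.3 to 51.4 ± 12.1 CPM and the S6 kinase gene Rps6kb2 from 33.6 ± 2.5 to 50.2 ± 3.0 CPM (SD, n = 5 each). Of 5 factors known at ribosomal protein promoters, Myc was higher (87 ± 52 against 232 ± 84 CPM, with overlap) and 3 were lower. Over all tested genes, 22.4% were called higher and 22.5% lower. The subunits of GABP, Gabpa and Gabpb1, fell by 0.78 and 1.36 on the log2 scale (edgeR adjusted p = 0.00137 and 3.52e-05), and Sp1 fell by 0.57.

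Total counts were 11577295 to 15332121 per library. Microglial markers were abundant in both groups, with a sum over 10 genes of 64140 to 73980 CPM in saline and 17180 to 37900 CPM in LPS, 7 of the 10 being lower. The sum of 9 monocyte markers was 14.4 to 22.8 CPM in saline and 78.1 to 219 CPM in LPS, with 3 of 6 tested higher and 2 lower. Mean levels rose from 4.19 to 99.4 CPM for Ms4a4c, 0.198 to 34.4 for Fn1 and 0.594 to 7.67 for F13a1. They fell from 10.2 to 2.45 CPM for Ccr2 and from 1.27 to 0.257 for Spn. Sums in saline and LPS were 556 to 773 and 251 to 525 CPM for 9 neutrophil markers (mostly Csf3r, which fell, while Cxcr2 rose from 0.112 ± 0.185 to 4.82 ± 2.73 CPM, SD, n = 5 each, and S100a8 had 0.017 and 3.52 CPM), 74.9 to 110.4 and 75.7 to 143 for 9 lymphocyte markers, and 53.1 to 78.8 and 6.42 to 12.2 for 7 endothelial markers, with Cldn5 at 0. They were 371 to 433 and 148 to 368 CPM for 7 astrocyte markers, 103 to 129 and 90.4 to 118 for 7 oligodendrocyte markers, 4.13 to 8.48 and 3.68 to 6.75 for 8 neuron markers, and 9.19 to 11.3 and 6.68 to 28.8 for 7 genes of dividing cells. Pecam1 made up most of the endothelial sum, with a mean of 54.1 CPM in saline and 7.05 CPM in LPS. Slc1a3 made up most of the astrocyte sum (381 and 211 CPM), and Cd79b most of the lymphocyte sum (96.8 and 93.1 CPM). A sum held mostly by a single gene need not give the level of a cell type. The part of other cells in the levels of ribosomal protein genes was not tested.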

How the data were processed

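Per the labels' protocols, 5 ng of RNA from the sorted cells of each mouse were amplified with a SMARTer kit and made into libraries with an Ovation kit, without molecular identifiers in those protocols. Raw counts per gene were deposited by the authors. The submitters' processing notes name featureCounts, GRCm38 and mm10. Aligner, annotation, strand use and treatment of reads with several matches: not given in the sources used here. RPKM values with an unexplained further scaling were also deposited by the authors; they gave gene lengths for 13199 genes and an alternative test. One row without a gene name was left out, and 15 names turned into dates were restored from Entrez IDs.

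All genes entered 1 test of counts in edgeR (version 4.0.16, R 4.3.3; TMM, filterByExpr, quasi-likelihood, Benjamini-Hochberg at 0.05 over 13793 genes). CPM are scaled with TMM factors, and standard errors are from log2 CPM with a prior count of 2. Library totals were 11577295 to 15332121 counts, and replicates are single mice. On simulated counts over 13389 genes, edgeR recovered 10.8% of genes changed 1.5-fold, 52.2% of 2-fold and 97.0% of 4-fold changes. Of the calls made, 4.5% were false. Only 65, 67 and 66 genes were changed at these 3 sizes, while 45.0% of genes were called in the data. The simulated rates therefore need not hold for the data. Ratios of pairs used counts plus 0.5. Named genes are the 3 highest of each subunit by CPM, the 4 largest and 4 smallest changes of each, both genes of each pair, a list of 13 well-studied members, and 2 called genes of each list in each direction, by adjusted p; some members are not reported here by name, though they stay in the fit and in the counts. Others named by role, position or as not called were chosen after their values were seen. Members, roles and lists were chosen with earlier results of these data known. Alternatives were other scalings, filters and tests (DESeq2 1.42.0, limma-voom in limma 3.58.1, RPKM with limma), protein-coding genes only, ranges of mouse numbers as a term, a length trend (lowess span 0.3) removed, and each mouse left out.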

Additional observations from a re-analysis of the deposited data

Results flagged for a closer look

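One value far from the other mice of its group was found in 2 of 136 groups of values examined, where chance alone gives about 1 in 20 groups. Rpl3l, the muscle paralogue of Rpl3 that had too few counts to test, had 0.669 CPM in the highest LPS mouse, against 0.233 CPM in the next. Gas5, the non-coding TOP RNA, had 269.7 CPM in the lowest saline mouse, against 364.7 CPM in the next.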

How the results depend on the processing

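Outside the removal of the length trend, the ribosomal protein genes called higher ran from 60 of 92 tested (no filter) to 75 of 85 (RPKM). With a mouse left out the number was 62 to 71, of 85 to 87 tested. Without the length trend it was 43 of 85 (25 large), with medians of 0.53, 0.53 for large and 0.52 for small subunit genes. No member was called lower in any setting. Short genes as a whole were higher in LPS, so removing the length trend lowered the estimates of short genes as a class. Also without the length trend, 22 of 40 biogenesis genes were higher and 1 was lower. In that fit 1 mTORC1 gene was lower and 2 chaperones were higher. The RNA polymerase I genes called lower were 1 under RLE scaling, without a filter or with mouse number ranges as a term, and 0 to 3 with a mouse left out. One mTORC1 gene was lower (1 of 12) under upper quartile scaling, no filter, mouse number ranges, DESeq2, limma-voom and the 3 RPKM fits, and 0 to 2 with a mouse left out; the cause was not tested. With a mouse left out, biogenesis genes lower were 0 to 1 and promoter factors higher 1 to 2. Pair differences then ran from 0.59 to 0.72 (Rpl22l1/Rpl22), -0.77 to -0.57 (Rpl7l1/Rpl7), 0.76 to 1.02 (Rps27l/Rps27) and -0.72 to -0.49 (Rps4l/Rps4x). A comparison added after seeing the data, the difference of the 2 changes without the length trend, gave -0.092 for Rpl22l1/Rpl22, -0.11 for Rpl7l1/Rpl7 and -0.017 for Rplp1/Rplp2. Signs turned without the length trend for 10 genes: Rpl37rt (-0.35), Rpl39l (-0.19), Rpl10 (-0.085), Rps24 (0.087), Rps4l (-0.23), Rps13 (-0.41), Rps19bp1 (-0.31), Rps27 (-0.33), Rps27rt (-0.44) and Rps28 (-0.21). They also turned for Rps24 without saline mouse 4 (0.030) or LPS mouse 4 (0.011), within a range of -0.11 to 0.030; none of these was called.

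No paired analysis was possible because the labels give no number that is shared between the groups. With ranges of mouse numbers as a term, 67 members were called higher. Genes with few counts limit the calls: 19 of 32 tested members with under 100 counts were called, against 48 of 53 above.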
